A study of Schizosaccharomyces pombe with 6 samples.

Results

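The genes described here encode the proteins of the small (40S) subunit of the cytoplasmic ribosome of the fission yeast *Schizosaccharomyces pombe*. A gene was taken when its symbol was rps followed only by digits, and its systematic identifier was matched to the array features. In all 55 genes met this rule, of 5483 annotated features, and all 55 were measured. They encode 31 proteins, of which 8 have 1 gene, 22 have 2 and 1 has 3. A single gene of the mitochondrial genome also carries the symbol rps3 and was not counted as a member. Expression was measured on 6 Affymetrix tiling arrays, 2 for each of 3 strains: the wild-type parent SPB76, a strain with cid14 deleted (cid14delta, SPB101) and a strain with air1 deleted (air1delta, SPB103). Each genotype was represented by 1 strain, all cultures were taken from YES, a rich medium, at 30 °C and an optical density of 0.5, and no drug or other treatment was named for any group. Of the proteins deleted, Cid14 adds poly(A) tails as the noncanonical polymerase of the TRAMP complex, and Air1 is its zinc-knuckle RNA-binding subunit. That complex marks nuclear RNAs for the exosome. The question put by the design was which transcripts differ in each mutant from the parent.

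Small subunit proteins assemble on the 18S ribosomal RNA in the nucleolus, nucleus and cytoplasm, and the finished subunit decodes mRNA. Its head, which carries part of the tRNA sites and the beak, matures later than the body and platform. Ribosomal protein mRNAs are among the most abundant of growing yeast, and many of these proteins are made from paralogous genes that differ mostly outside the coding sequence. The TRAMP complex takes part in the processing and decay of the precursors of ribosomal RNA.

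Each value is a log2 expression value that summarises the probes of 1 gene on 1 array. It depends on the gene's probes as well as on its RNA, so only the same gene, or the same pair of genes, was compared between strains. The labels describe a double-stranded target, so RNA of both strands added to a value. Shared probe sequence between paralogs was not analysed here. The members' median lay at 12.84 and 12.81 on the wild-type arrays, at 12.84 and 12.77 on those of cid14delta and at 12.63 and 12.68 on those of air1delta. On every array 52 or 53 of the 55 members lay above the upper quartile of all features. Replicate arrays of a strain differed by a median of 0.05 to 0.07 over the members, and at most by 0.54 (rps2801 in wild type). The deleted genes matched the labels: cid14 lay at 3.91 and 3.63 in cid14delta against 8.92 and 8.84 in wild type, and air1 lay at 4.42 and 4.90 in air1delta against 10.49 and 10.40 in wild type. By the scan names in the labels, both air1delta arrays belonged to an array series that held no wild-type array, so array series and genotype cannot be told apart in any comparison of air1delta.

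In air1delta, small subunit genes lay mostly below wild type. Genes were tested with limma, adjusted by Benjamini-Hochberg over all features and called at an adjusted p under 0.05. Of the 55 genes 10 fell, 0 rose and 45 did not pass. An unadjusted p under 0.05 was found for 18 members, and for 2258 of the 5483 features, which is a larger share. The share called lower was 18.2%, against 9.72% of all features, and the share called higher was 0, against 16.4%. In either direction 26.2% of all features were called. The members' median log2 change was -0.14, with a range from -1.12 to 0.33, against a median of 0.03 over all features. Of the members 41 had a change below 0 and 14 above (74.5% below, against 44.6% of all features). Both air1delta arrays lay below both wild-type arrays for 36 members, or 65.5%, against 29.7% of all features, and above them for 8, where the share of all features was 39.3%. Most members thus differed from wild type by little, and a few by more. The size of the median depended on the scaling: it was -0.21 with each array centred on its median, -0.04 after quantile normalization and -0.05 after cyclic loess, below 0 in each. The median over all features was then -0.02 after quantile normalization and -0.003 after cyclic loess. The members' distance from all features was therefore smaller in both than with the deposited values. The count of 10 was 18 after centring, 6 after cyclic loess and 5 when only wild type and air1delta were fitted. Removing single arrays left 6 and 5 calls (wild type replicate 1 or 2), 5 and 5 (cid14delta) and 3 and 2 (air1delta), and every gene called in these fits was lower.

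**Figure D1:**
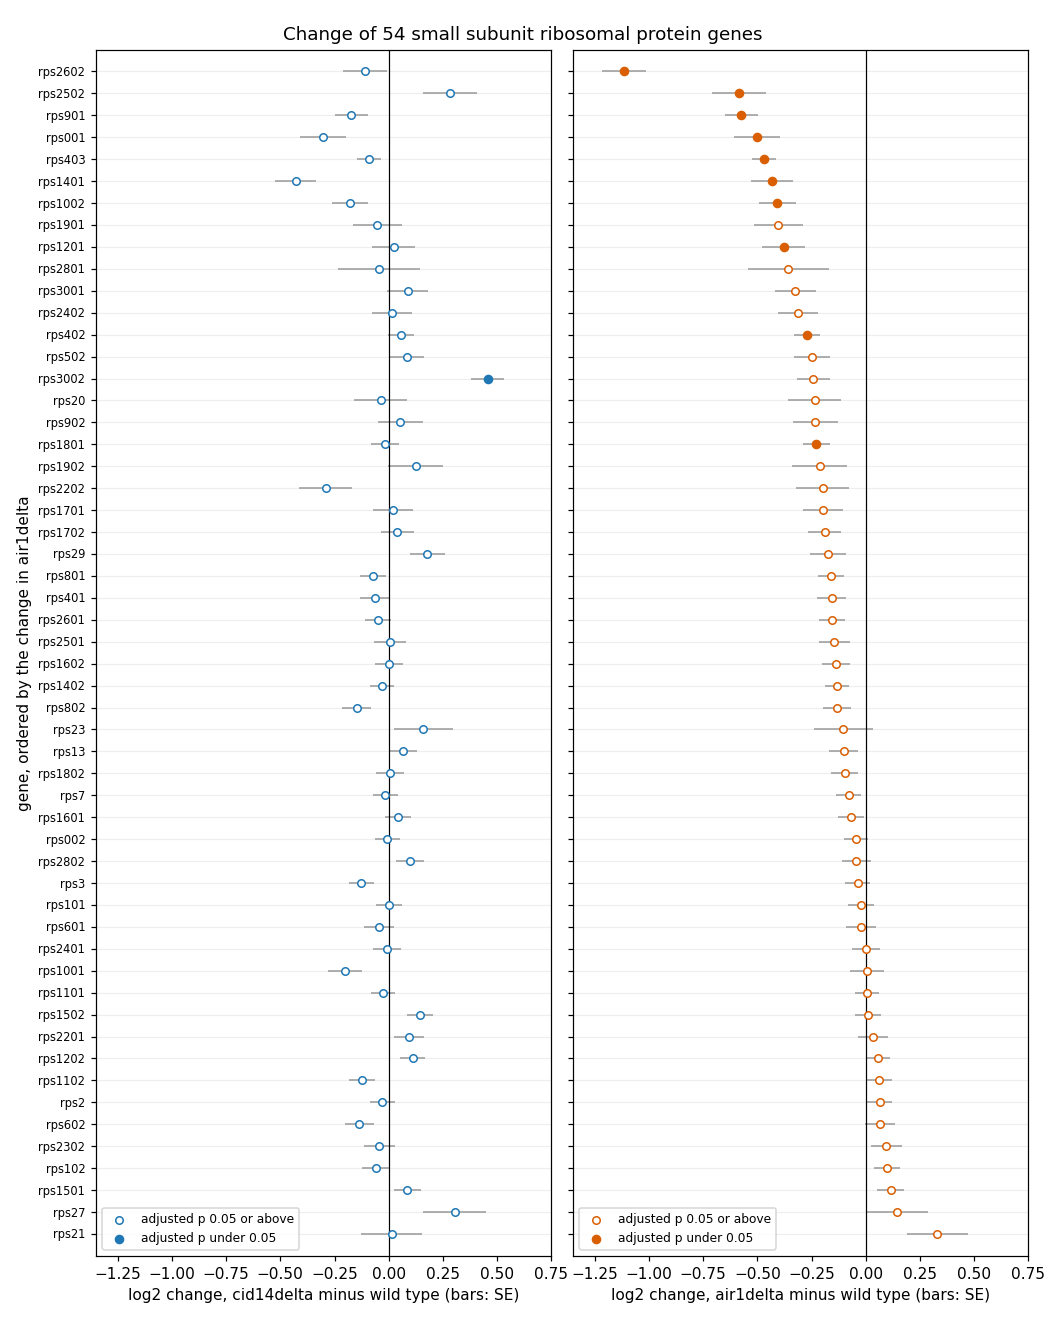
Log2 change of 54 of the 55 genes (rows) in cid14delta (left) and air1delta (right) against wild type, with bars of 1 SE and n = 2 arrays per strain. Filled points passed an adjusted p of 0.05: 1 gene in cid14delta, rps3002, and 10 in air1delta, all lower.

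Among proteins of the body and platform, the gene with the largest fall in air1delta was rps2602 (SPAC1805.11c, chromosome I). It encodes a protein of the mRNA exit channel that contacts mRNA upstream of the start codon. Its values were 12.19 and 11.94 in wild type, 11.97 and 11.94 in the cid14 deletion and 11.02 and 10.88 in the air1 deletion. The air1delta arrays lay well below the other 4, and wild type and cid14delta overlapped. The gene fell by 1.12 ± 0.10 on the log2 scale in air1delta (± SE, with 2 arrays for each strain), which is 2.17-fold (adjusted p = 0.00749 by limma). It was called in all 12 alternatives that were computed for it, with changes between -1.24 and -0.99. The alternatives are not all distinct: for air1delta against wild type, fitting only these strains and leaving out either cid14delta array gave the same result. This holds for every such count below. The paralog of rps2602, rps2601 (SPAC806.03c), read 13.72 and 13.77 in wild type, 13.72 and 13.66 in the cid14 deletion and 13.58 and 13.59 in the air1 deletion. That is a change of -0.16 ± 0.06 in air1delta, which did not pass (adjusted p = 0.109), although its arrays did not overlap with wild type.

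The gene rps901 (SPAC24H6.07) encodes a protein near the mRNA entry site whose bacterial counterpart affects decoding accuracy. It read 13.60 and 13.45 in wild type, 13.36 and 13.35 in the cid14 deletion and 13.002 and 12.90 in the air1 deletion, so that the 3 strains did not overlap. It fell by 0.57 ± 0.08 in air1delta (adjusted p = 0.011) and was called in 11 of 12 alternatives, the exception being the fit that left out air1delta replicate 2 (adjusted p = 0.0581). The 3 genes for the S4 protein, which binds the ribosomal RNA early in assembly, moved by different amounts. For rps403 (SPAC959.07) the values were 12.43 and 12.40 in wild type, 12.33 and 12.33 in the cid14 deletion and 11.96 and 11.93 in the air1 deletion. It fell by 0.47 ± 0.06 in air1delta (adjusted p = 0.00911), and all 12 alternatives called it. For rps402 (SPBC21B10.10) they were 12.89 and 12.91, then 12.99 and 12.92, then 12.63 and 12.62, a fall of 0.27 ± 0.06 (adjusted p = 0.027). The third, rps401 (SPBC19F8.08), had -0.16 ± 0.07 and did not pass (adjusted p = 0.134).

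The gene rps001 (SPBC685.06) encodes a homologue of the laminin receptor precursor that, in budding yeast, is needed to mature the 18S RNA. Its values were 12.92 and 12.73 in wild type, 12.59 and 12.46 in the cid14 deletion and 12.42 and 12.23 in the air1 deletion. Both mutants lay below wild type, and its fall of 0.50 ± 0.11 in air1delta passed (adjusted p = 0.026) while its -0.30 ± 0.11 in cid14delta did not (adjusted p = 0.132). The gene rps1401 (SPAC3H5.05c) encodes a platform protein in which mutations give hamster cells resistance to emetine. It read 12.53 and 12.73 in wild type, and 12.14 and 12.26 in each mutant. Its change was -0.43 ± 0.10 in both, called in air1delta (adjusted p = 0.0298) and short of the threshold in cid14delta (adjusted p = 0.0545). In cid14delta it passed with each array centred on its median (adjusted p = 0.0372). It also passed with features of low value left out (adjusted p = 0.043). With the replicate number as a block over all arrays it passed narrowly (adjusted p = 0.04998). That block joined the air1delta arrays to the others by number, although they have no day in common with them in the labels.

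In the head, 4 of 23 genes fell in air1delta (17.4%) and 19 did not pass. Of the 32 genes for the body and platform 6 fell (18.8%) and 26 did not pass, so the shares were close. Over all features 9.72% were called lower. The medians were -0.18 in the head and -0.12 in the body and platform. Of the head genes, rps2502 (SPAC694.05c) fell most. Its protein lies between the tRNA sites and is needed for initiation at some viral internal ribosome entry sites in budding yeast. Its values were 11.35 and 11.69 in wild type, 11.82 and 11.79 in the cid14 deletion and 11.01 and 10.86 in the air1 deletion. It fell by 0.59 ± 0.12 in air1delta (adjusted p = 0.0266), and its change of 0.28 ± 0.12 in cid14delta did not pass (adjusted p = 0.201) although both cid14delta arrays were the higher ones.

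The other head genes that fell in air1delta were rps1002, rps1201 and rps1801. For rps1002 (SPBP22H7.08), a protein near the mRNA entry channel, the values were 13.67 and 13.59 in wild type, 13.55 and 13.35 in the cid14 deletion and 13.24 and 13.20 in the air1 deletion (-0.41 ± 0.08, adjusted p = 0.025). For rps1201 (SPCC962.04), a protein of the beak, they were 12.29 and 12.33, then 12.47 and 12.20, then 11.93 and 11.94 (-0.38 ± 0.10, adjusted p = 0.0432). For rps1801 (SPBC16D10.11c), whose protein forms a bridge to the large subunit, they were 12.27 and 12.30, then 12.31 and 12.22, then 12.03 and 12.08 (-0.23 ± 0.06, adjusted p = 0.0484). In all 3 genes the air1delta arrays were the lowest of the 6. Leaving out 1 array at a time kept the call of rps1002 in 2 of 6 fits, of rps1201 in 2 of 6 and of rps1801 and rps402 in 0 of 6. For rps001, rps1401 and rps2502 it was kept in 1 of 6 each.

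Another 5 genes had an adjusted p between 0.05 and 0.1 in air1delta, all of them lower, a count not made over all features. These were rps1901 (-0.40, adjusted p = 0.0515), rps3001 (-0.33, adjusted p = 0.0556), rps2402 (-0.31, adjusted p = 0.0614), rps3002 (-0.24, adjusted p = 0.072) and rps502 (-0.25, adjusted p = 0.0751). The largest positive changes were those of rps21, rps27 and rps1501, and none passed. For rps21 (SPBC18E5.06), whose protein binds the S0 protein, the values were 8.78 and 9.16 in wild type, 8.89 and 9.07 in the cid14 deletion and 9.35 and 9.24 in the air1 deletion (0.33 ± 0.14, adjusted p = 0.142). The change was 0.14 without wild type replicate 1 and 0.52 without wild type replicate 2. Its wild-type mean of 8.97 was the lowest of the members. For rps27 (SPBC1685.10), a zinc-finger protein, they were 11.96 and 12.38, then 12.51 and 12.43, then 12.35 and 12.27 (0.14 ± 0.14, adjusted p = 0.491), so that air1delta lay within the range of wild type, and the change was -0.069 without wild type replicate 1. For rps1501 (SPCC1393.03), a head protein next to the decoding site, the change was 0.11 ± 0.06 (adjusted p = 0.223).

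**Figure D2:**
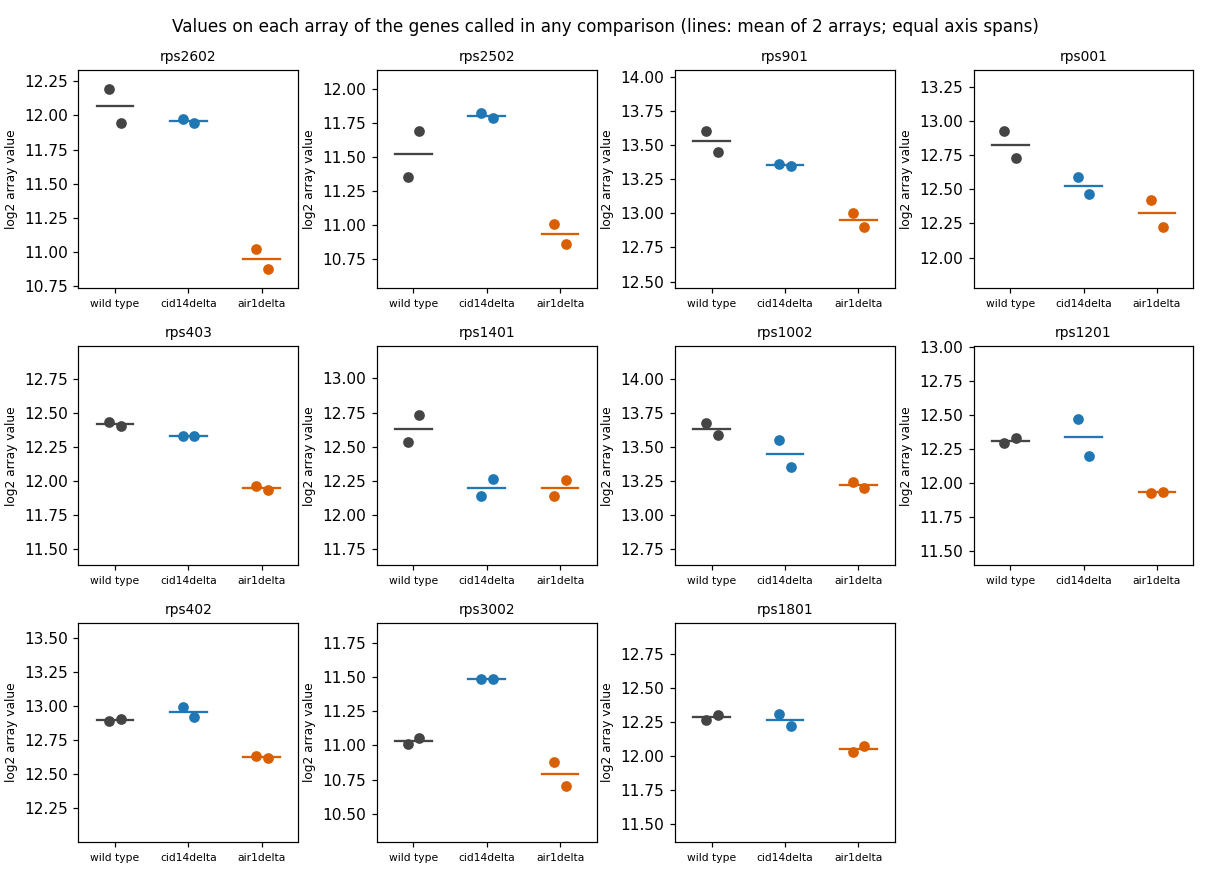
Log2 value on each of the 6 arrays for the 11 genes called in any comparison, with lines at the mean of 2 arrays and the same axis span in each panel. The air1delta points of rps2602 lie about 1 log2 unit below those of the other strains, rps1401 is equally low in both mutants, and rps3002 is high in cid14delta.

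In cid14delta, 1 small subunit gene rose, 0 fell and 54 did not pass, or 1.82% called against 8.66% of all features (4.78% higher and 3.88% lower). An unadjusted p under 0.05 was found for 4 members, and for 1641 of the 5483 features, which is a larger share. The members' median change was -0.01, against 0.03 over all features, with a range from -0.43 to 0.46. The sign of that median followed the scaling, at -0.08 with each array centred on its median and 0.06 after both quantile normalization and cyclic loess. Changes were below 0 for 29 members (52.7%, against 44.0% of all features). Both cid14delta arrays lay below both wild-type arrays for 16 members and above for 13, where the shares of all features were 27.7% and 35.0%.

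The gene that rose was rps3002 (SPBC19G7.03c, chromosome II), which encodes a small basic protein of the body that mammals make as a fusion with a ubiquitin-like protein. It read 11.01 and 11.05 in wild type, 11.49 and 11.49 in the cid14 deletion and 10.88 and 10.70 in the air1 deletion. The cid14delta arrays were above and the air1delta arrays below all the others. Its rise was 0.46 ± 0.08, or 1.37-fold (adjusted p = 0.0317). The call was lost with the replicate number as a block over all 6 arrays (adjusted p = 0.06) and when only wild type and cid14delta were fitted (adjusted p = 0.0554). It was also lost whichever of the 6 arrays was left out. Across all alternatives the change stayed between 0.39 and 0.48. Its paralog rps3001 (SPAC19B12.04) had 0.09 ± 0.09 (adjusted p = 0.578). After rps3002 the largest positive changes in cid14delta were 0.30 ± 0.14 for rps27 (adjusted p = 0.225) and 0.28 for rps2502, and the largest negative ones were -0.43 for rps1401, -0.30 for rps001 and -0.29 ± 0.12 for rps2202 (SPAC5D6.01, adjusted p = 0.185). Single arrays moved 3 of these values. When wild type replicate 1 or 2 was left out, rps27 had 0.092 or 0.52 and rps2502 had 0.11 or 0.45. When cid14delta replicate 1 or 2 was left out, rps2202 had -0.12 or -0.46. The values of rps2202, a protein of the body, were 11.60 and 11.48 in wild type, 11.08 and 11.42 in the cid14 deletion and 11.36 and 11.33 in the air1 deletion.

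Set against each other, air1delta lay below cid14delta for most members. Of the 55 genes 6 were lower in air1delta, 0 higher and 49 did not pass, or 10.9% called against 10.0% of all features (5.51% higher and 4.50% lower). The median difference was -0.13, against 0.02 over all features, and 40 members lay below 0 (72.7%, against 45.7% of all features). The 6 genes were rps2602 (-1.01 ± 0.10, adjusted p = 0.0173), rps2502 (-0.87 ± 0.12, adjusted p = 0.0286), rps3002 (-0.70 ± 0.08, adjusted p = 0.019), rps901 (-0.40 ± 0.08, adjusted p = 0.0397), rps403 (-0.38 ± 0.06, adjusted p = 0.0286) and rps402 (-0.33 ± 0.06, adjusted p = 0.0339). For rps1401 the 95% interval of the difference ran from -0.24 to 0.24. The count was 0 without either cid14delta array or without either air1delta array, and 7 without either wild-type array. The comparisons of each mutant with wild type share its 2 arrays. The changes of 21 members were below 0 in both mutants, those of 6 above 0 in both, and those of 28 differed in sign. The same counts were not made over all features, so these describe the members only.

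The paralogs were compared through the difference of their log2 values on the same array, which removes any shift common to the whole array. The symbols gave 23 pairs of 21 proteins, the S4 protein adding 3. The difference was fitted with limma over all 61 pairs of cytoplasmic ribosomal protein genes of both subunits, and adjusted over these 61. In air1delta 9 of the 23 pairs changed in their difference and 14 did not pass. That is 39.1%, against 36.1% of all 61 pairs and 34.2% of the other 38, so unequal change was about as frequent in the pairs of the large subunit and stalk. The median size of the change was 0.20 in the small subunit pairs and 0.21 in the others. In 8 of the 9 pairs exactly 1 member was itself called, as in 2 of the 14 pairs that did not pass. A test of the difference favours such pairs, so these counts only describe them.

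The pair rps2601/rps2602 differed by 1.53 and 1.82 in wild type, 1.75 and 1.72 in the cid14 deletion and 2.56 and 2.71 in the air1 deletion. The difference widened by 0.96 ± 0.11 in air1delta (95% interval 0.70 to 1.22, adjusted p = 0.00102). In rps1001/rps1002 it went from 0.11 and 0.07 in wild type to 0.04 and 0.10 in cid14delta and 0.50 and 0.52 in air1delta (0.41 ± 0.07, adjusted p = 0.00752). For these 2 pairs all 10 alternatives gave the same call. The rps1001 gene itself had 0.01 ± 0.08 in air1delta (adjusted p = 0.966).

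In rps2501/rps2502 the difference was 0.47 and 0.26 in wild type, 0.05 and 0.12 in the cid14 deletion and 0.70 and 0.91 in the air1 deletion. The cid14delta and air1delta arrays lay on opposite sides of wild type, with changes of -0.28 ± 0.11 (adjusted p = 0.167) and 0.44 ± 0.11 (adjusted p = 0.013). In rps1201/rps1202 the difference was -0.92 and -0.92, then -0.87 and -1.13, then -1.33 and -1.37 (-0.43 ± 0.10 in air1delta, adjusted p = 0.0129). In rps001/rps002 it was -1.17 and -1.37, then -1.52 and -1.61, then -1.61 and -1.84 (-0.46 ± 0.11 in air1delta, adjusted p = 0.013). In both pairs only the first-named gene was itself called: rps002 had -0.05 ± 0.06 (adjusted p = 0.568) and rps1202 had 0.06 ± 0.06 (adjusted p = 0.496) in air1delta.

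The remaining pairs with a changed difference in air1delta were rps401/rps403 (0.31 ± 0.08, adjusted p = 0.0175), rps2401/rps2402 (0.31 ± 0.09, adjusted p = 0.0278), rps901/rps902 (-0.34 ± 0.10, adjusted p = 0.0322) and rps1401/rps1402 (-0.30 ± 0.09, adjusted p = 0.0389). In rps2401/rps2402, genes for a protein of the body, neither gene was called alone: rps2401 had 0.00 ± 0.06 and rps2402 had -0.31 ± 0.09. In rps1401/rps1402 the difference was -1.09 and -0.91 in wild type, -1.47 and -1.33 in the cid14 deletion and -1.34 and -1.25 in the air1 deletion, so both mutants lay below wild type. Its change of -0.40 ± 0.09 in cid14delta did not pass (adjusted p = 0.065). Of the 9 pairs called in air1delta, all but rps2601/rps2602 and rps1001/rps1002 lost the call in some alternatives. Across the alternatives the change in air1delta ran from -0.43 to -0.25 for rps901/rps902 and from -0.39 to -0.21 for rps1401/rps1402. Leaving out air1delta replicate 1 or 2 lowered the 9 pairs to 5 and 2, and without wild type replicate 1 there were 6.

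**Figure D3:**
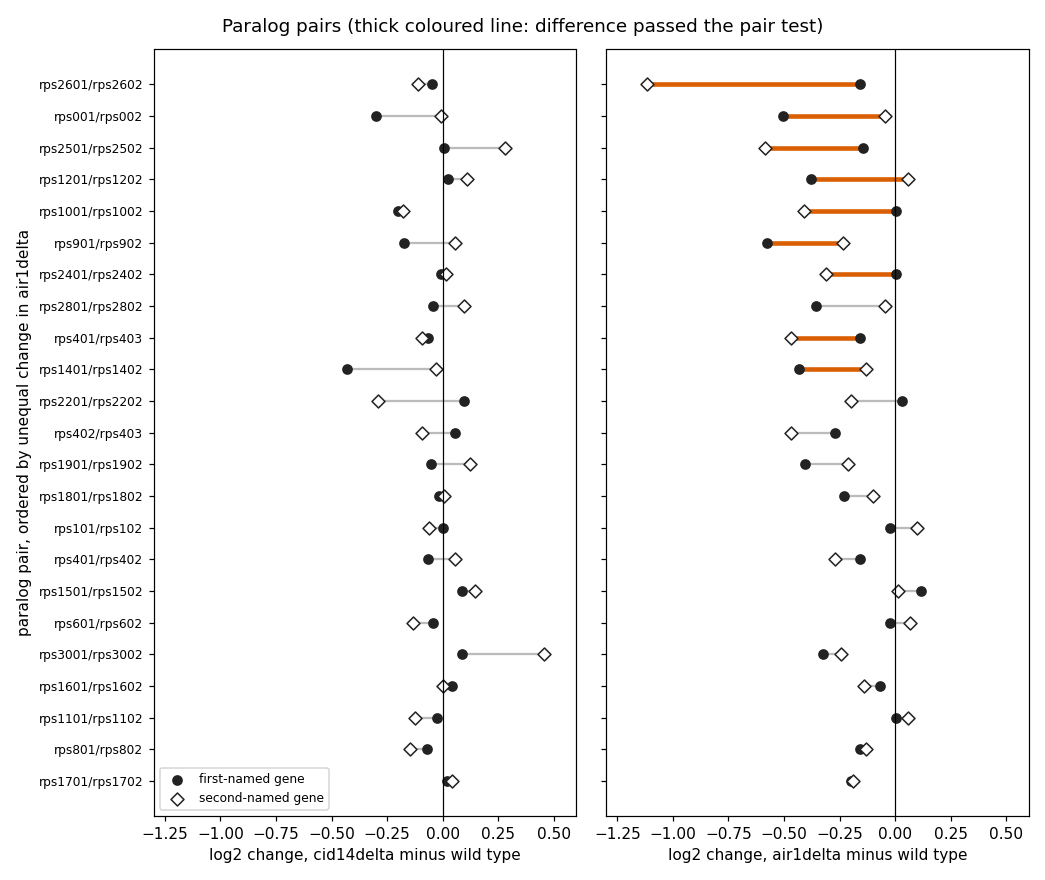
Log2 change against wild type of both members of each of the 23 paralog pairs (circle, first-named gene; diamond, second-named gene) in cid14delta (left) and air1delta (right). Thick coloured lines mark the 9 pairs whose difference changed in air1delta; in cid14delta there were 0.

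The pairs whose difference moved least, judged by the larger of the changes in both mutants, were rps1701/rps1702 and rps1601/rps1602. The first encodes a head protein, and its difference was 1.02 and 1.01 in wild type, 0.91 and 1.08 in the cid14 deletion and 1.02 and 0.998 in the air1 deletion. Its change was -0.01 ± 0.08 in air1delta (95% interval -0.20 to 0.19), and rps1701 and rps1702 had nearly equal changes of -0.20 and -0.19. The second encodes a head protein whose tail reaches the tRNA in the peptidyl site, and its difference changed by 0.07 ± 0.09 (95% interval -0.13 to 0.27). Both intervals lie within the size of the smallest change called in air1delta, 0.30. These pairs were picked because they moved least, so the intervals are no test of equal change.

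In cid14delta 0 of 23 pairs passed, against 3.28% of all 61, and 5 had an unadjusted p under 0.05. The largest changes were -0.40 in rps1401/rps1402, 0.39 ± 0.13 in rps2201/rps2202 (adjusted p = 0.15) and -0.37 ± 0.11 in rps3001/rps3002 (adjusted p = 0.135). The rise of rps3002 was therefore not shown to differ from the change of its paralog. With a replicate block, after quantile normalization and after cyclic loess 1 pair was called, and without wild type replicate 1 there were 2. Between the mutants 6 pairs differed, or 26.1% against 23.0% of all 61. They were rps2601/rps2602 (0.90 ± 0.11), rps2501/rps2502 (0.72 ± 0.11), rps1001/rps1002 (0.44 ± 0.07), rps1201/rps1202 (-0.35 ± 0.10), rps2401/rps2402 (0.34 ± 0.09) and rps401/rps403 (0.28 ± 0.08). The count was 3 when cid14delta replicate 1 was left out, 2 for air1delta replicate 1 and 3 for air1delta replicate 2. The genes rps23 and rps2302 encode the same protein but their symbols did not meet the pair rule. Their difference changed by 0.20 in cid14delta and -0.20 in air1delta.

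What the members had in common beyond their name was limited. They lie on all 3 chromosomes, 28 on I, 20 on II and 7 on III. Of these 5, 4 and 1 fell in air1delta (17.9%, 20% and 14.3%, against 9.72% of all features). The 8 genes without a paralog gave 0 calls in air1delta, with a median of -0.06, and the 47 with one gave 10, all lower, with a median of -0.16. With 9.72% of all features called lower, 0 of 8 is too few genes to read as a contrast, and the difference was not tested. In the order of protein-coding genes, 3 pairs of members are direct neighbours. The changes in air1delta were -0.18 for rps29 and 0.14 for rps27, -0.13 for rps1402 and -0.07 for rps1601, and 0.06 for rps2 and -0.24 for rps20, so 2 of the 3 neighbouring pairs had changes of opposite sign, or 1 of 3 without wild type replicate 1, where rps27 had -0.069. Across the 55 genes, Pearson's r between the change in air1delta and the wild-type value was 0.14 and Spearman's rho 0.30, and for gene length they were 0.06 and 0.09. In cid14delta the same values were -0.31 and -0.37 for the wild-type value, and -0.35 and -0.38 for gene length. These are descriptions across genes that share the same 6 arrays. The 13 members whose wild-type mean lay above that of every gene that fell had changes from -0.31 to 0.10 in air1delta.

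In the reference annotation 40 of the 55 genes overlap another annotated gene and 15 do not. Because the target was double-stranded, RNA of either gene could add to an overlapped value. The 15 genes without an overlap had a median of -0.14 in air1delta, with 2 that fell (13.3%) and 0 that rose. The 40 with one also had -0.14, with 8 that fell (20%) and 0 that rose. Over all features 9.72% were called lower and 16.4% higher, and the difference between these groups was not tested. Of the 11 genes called in any comparison 9 have an overlapping partner, and 3 of the 10 partners were measured. The partner of rps2602, SPAC1805.10, had 0.12 in air1delta (adjusted p = 0.216). The partner of rps1401, aar2, rose by 0.60 in air1delta (adjusted p = 0.0244), where rps1401 fell. The partner of rps3002, abz2, rose by 0.43 in air1delta (adjusted p = 0.0109). The change of rps3002 itself in air1delta, -0.24, did not pass (adjusted p = 0.072). In cid14delta, where rps3002 rose, abz2 had 0.16 and did not pass (adjusted p = 0.136).

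Other gene groups of ribosome production gave the scale for these changes. The 72 large subunit genes had a median of -0.09 in air1delta, with 13 that fell (18.1%, against 9.72% of all features). There 1 rose, where 16.4% of all features did. In cid14delta their median was -0.02, 0 fell and 1 rose (1.39% called, against 8.66% of all features). Of the 7 stalk genes, a small list, 1 rose and 1 fell in cid14delta (28.6% called, against 8.66% of all features). In air1delta 2 fell and 1 rose (42.9% called, against 26.2%). There rpp103 fell by 0.51 ± 0.08 (adjusted p = 0.0149), rpp0 by 0.30 ± 0.06 (adjusted p = 0.0212), and rpp202 rose by 0.85 ± 0.10 (adjusted p = 0.00939). The 45 genes for assembly factors of the small subunit, the proteins that process and fold its precursor, lay on the other side. In air1delta 21 rose (46.7%, against 16.4% of all features), 0 fell and 24 did not pass, with a median of 0.30. In cid14delta 7 rose (15.6%, against 4.78%), 0 fell and 38 did not pass, with a median of 0.23. The 17 mitochondrial small subunit genes had 3 that rose (rsm1 0.63, rsm27 0.59 and mrps17 0.52) and 2 that fell (rsm10 -0.36 and rsm23 -0.31) in air1delta, and 0 calls in cid14delta. In cid14delta 6 had an unadjusted p under 0.05, as did 1641 of the 5483 features. The share called in air1delta, 29.4%, was near the 26.2% of all features, as was the share called lower, 11.8% against 9.72%.

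Of 16 genes of the TORC1 growth pathway and of ribosomal protein transcription, 0 were called in cid14delta, where 0 also had an unadjusted p under 0.05. Over all features these counts were 475 and 1641 of 5483. In air1delta 0 rose (against 16.4% of all features), 3 fell (18.8%, against 9.72%) and 13 did not pass, with a median of -0.12. The 3 were mip1, which encodes the Raptor subunit of TORC1 (-0.46 ± 0.09, adjusted p = 0.0214), rrn7, which encodes a factor that binds the HomolD element of ribosomal protein promoters (-0.32 ± 0.07, adjusted p = 0.0303), and gtr2, a Rag GTPase (-0.26 ± 0.07, adjusted p = 0.044).

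**Figure D4:**
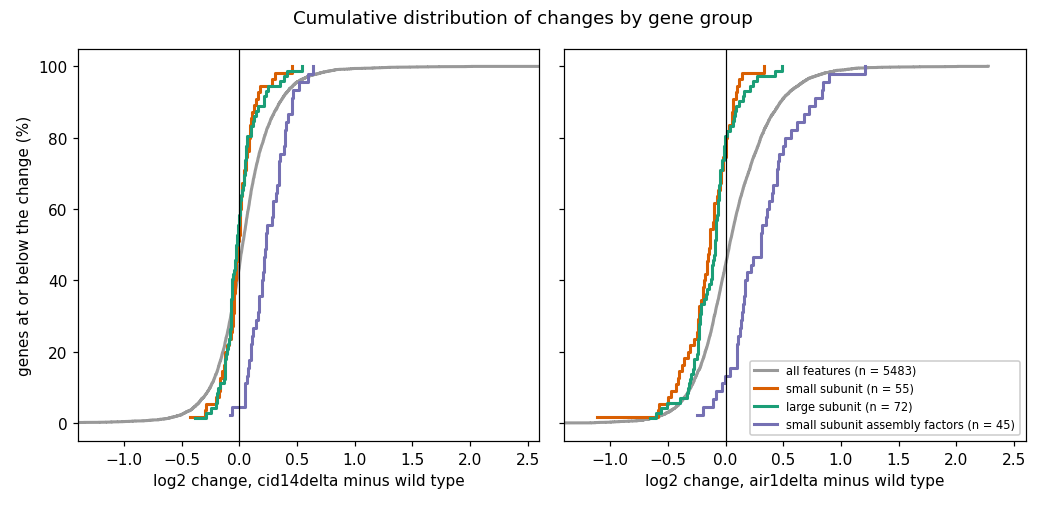
Cumulative share of genes (vertical, percent) at or below each log2 change against wild type (horizontal) in cid14delta (left) and air1delta (right). In air1delta the small and large subunit curves lie left of all features (medians -0.14, -0.09 and 0.03) and the assembly factors lie right (0.30); changes below -1.4 or above 2.6 are not drawn.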

How the data were processed

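Per the labels' protocols, total RNA was isolated with hot phenol and made into biotin-labelled double-stranded target. The authors deposited 1 table with a log2 value per feature and array, a scale read here from the range of the values. The submitters' processing notes name affy; background correction, normalization and the annotation build were not stated in what was used here. Feature identifiers were matched, ignoring case, to a RefSeq gene table (ASM294v3): 5357 of 5483 matched. That table gave names, gene order, overlaps and lengths.

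Values were fitted with limma 3.58.1 under R 4.3.3, with strain as the only factor over all 6 arrays (3 residual and 2.51 prior degrees of freedom), two-sided tests and Benjamini-Hochberg adjustment over all features. Paralog differences were fitted likewise over 61 pairs, some sharing a gene. The fits were tested on simulated data. In each comparison, fitting only both strains and leaving out either array of the remaining strain gave the same result, so these alternatives are not distinct. An exact permutation test of 2 against 2 arrays cannot go below p = 0.333, and the number of arrays limits the precision. Same-numbered arrays of wild type and cid14delta have a day in common in the labels, which pairs them (correlation of their deviations -0.00632). The air1delta arrays have no such partner, but the replicate block was fitted by number over all 6 arrays. Named genes were those called, the 3 largest changes each way in each mutant, members of called pairs and of the 2 least changed pairs, and called genes of short context lists. Outside this rule, rps1901, rps502, rps3001, rps2201, rps29, rps2, rps20, rps23, rps2302, rps2801 and the overlapping partner genes were named after their values were seen. Members and lists were chosen with earlier results of these data known, and the stalk list was narrowed by symbol to leave out RNase P subunits. Promoter sequence was not used here. Values of 1 member are not reported here by name, and it is counted in the totals.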

Additional observations from a re-analysis of the deposited data

How the results depend on the processing

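Small subunit genes called in air1delta numbered 10, against 18 with each array centred on its median, 6 after cyclic loess, 5 when only both strains were fitted, and 2 to 6 with 1 array left out; every call in these settings was lower. Their median change of -0.14 became -0.21 (centring), -0.045 (quantile) and -0.052 (cyclic loess), and ran from -0.15 to -0.11 with 1 array left out. Over all features the median was -0.019 (quantile) and -0.0029 (cyclic loess). In cid14delta the 1 call became 2 after centring, 2 after leaving out features at or below 4.90 and 0 when only both strains were fitted, and 0 to 0 with 1 array left out. With the replicate block it was 1, but rps1401 in place of rps3002. The median of -0.01 became -0.075, 0.055 and 0.057 after centring, quantile and cyclic loess, so it has no stable sign. Between the mutants the 6 calls became 10 with the low-value filter and 2 with the replicate block, and 0 to 7 with 1 array left out. Pairs with unequal change in air1delta numbered 9, and 2 to 10 with 1 array left out. In cid14delta they numbered 0, then 1 after quantile normalization, cyclic loess or the replicate block, and 0 to 2 with 1 array left out. Between the mutants they numbered 6, and 2 to 7 with 1 array left out. The change of rps27 in air1delta was -0.069 without wild type replicate 1, the reverse of its sign, and 0.35 without wild type replicate 2. Calls over all features varied likewise: 475 in cid14delta fell to 69 with 4 arrays and 179 with the block, 1434 in air1delta to 870 with 4 arrays, and 549 between the mutants to 72 with the block. Leaving out single arrays gave 1 to 338, 273 to 952 and 2 to 488. Beyond rps3002 and rps1401 in cid14delta, effects of the block on single calls concern comparisons with air1delta, where numbers pair no arrays. The block was the replicate number on all 6 arrays, so the cid14delta results with it also rest on joining the air1delta arrays by number. A filter on low values was not run for pair differences, and centring leaves them as they are. Where another cause than fewer arrays or features could act, the cause was not tested.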
